A study of Mus musculus with 4 samples.

Results

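The genes of the respiratory chain were examined in colonic CD4+ T cells whose donors did or did not carry the dLck-Cre transgene on a CK2α fl/fl background. Members were all rows of the deposited table whose symbols begin with Nduf, Uqcr, Cox4, Cox5, Cox6, Cox7, Cox8, Atp5 or mt-, together with Sdha, Sdhb, Sdhc and Sdhd. They numbered 111 of 16555 genes, of which 86 are nuclear and 25 are encoded by the mitochondrial genome.

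The respiratory chain lies in the inner mitochondrial membrane. Complex I takes electrons from NADH and complex II from succinate, complex III passes them from ubiquinol to cytochrome c, complex IV hands them to oxygen, and complex V, the ATP synthase, uses the resulting proton gradient to make ATP. Most subunits are nuclear genes, while the mitochondrial genome encodes core subunits of every complex but complex II, as well as the rRNAs and tRNAs that translate them, and is transcribed from both strands as long precursors that are cut at the tRNAs. Activated T cells use this pathway beside glycolysis.

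Both groups came from Rag1-/- hosts, which have no T or B cells of their own, which develop colitis after receiving CD4+CD25-CD45RBhi T cells. Host colons were taken 6 weeks later, and CD45+CD3+CD4+ cells were sorted from them for total RNA. Donor cells were CK2α fl/fl with dLck-Cre (2 libraries) or CK2α fl/fl without Cre (2 libraries), so the floxed alleles are shared and the transgene is what differs. The distal Lck promoter drives Cre in mature T cells, and CK2α, the catalytic subunit of protein kinase CK2, is encoded by Csnk2a1. The labels do not say whether replicates are separate animals, so the p-values below speak only of variation among these 4 libraries, whose source may be technical.

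Whole reads recovered from the table came to 16777017 and 22422971 in libraries labelled dLck-Cre and to 18517974 and 17666457 in the fl/fl libraries. Csnk2a1, the targeted gene, had 2118 and 2031 normalized counts in libraries labelled dLck-Cre, against 1534 and 1597 in the fl/fl libraries (log2 difference 0.41 ± 0.13 SE; limma, adjusted p = 0.108). It was thus not lower under the label, and all directions below refer to the libraries as labelled. A count per gene does not show whether an exon was removed. Markers of other colonic cells were present in the sorted cells and higher in libraries labelled dLck-Cre. The 26 colonic epithelial markers, 21 of which rose, took 0.807% ± 0.0813 of reads there and 0.319% ± 0.0244 in the fl/fl libraries. The 25 monocyte, macrophage and dendritic cell markers, 18 of which rose, took 0.591% ± 0.0816 and 0.258% ± 0.0896. The 20 T cell identity genes, 7 of which fell, took 0.590% ± 0.0385 and 0.797% ± 0.0158 (SD, n = 2 each; calls by limma at an adjusted p under 0.05). Of all genes tested, 5.75% rose and 1.22% fell by the same calls. No marker of these lists was at 0 in any library, and their part in the results below was not tested. In RNA of a mixed population, fewer cells of a type and less RNA per cell cannot be told apart.

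No respiratory chain gene passed the test between the groups. All 111 members passed the filter of a mean of at least 10 normalized counts, and 0 of them were called by limma, against 6.97% of all 16490 genes tested (5.75% higher and 1.22% lower). At an unadjusted p under 0.05 there were 4 members, Cox7a1, Cox7a2l, Ndufb11 and Uqcr11, where 23.9% of all genes were below that value. On the same reads edgeR called 0 members, against 6.87% of all genes (5.83% higher, 1.04% lower), and DESeq2 called 0, against 10.7% (8.17% higher, 2.55% lower). A p that misses the threshold does not show that levels were equal, so the intervals of the differences are given as well. For 84 of the 86 nuclear members the 95% interval of the difference lay within 2-fold in either direction, against 54.6% of all genes. Median standard errors were 0.15 for the nuclear members and 0.23 over all genes. In the other pathway lists used below, the share with such intervals ran from 58.3% (regulators of nuclear genes) to 100% (TCA cycle genes). For the mitochondrial members the interval lay within 2-fold for 5 of 25.

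**Figure D1:**
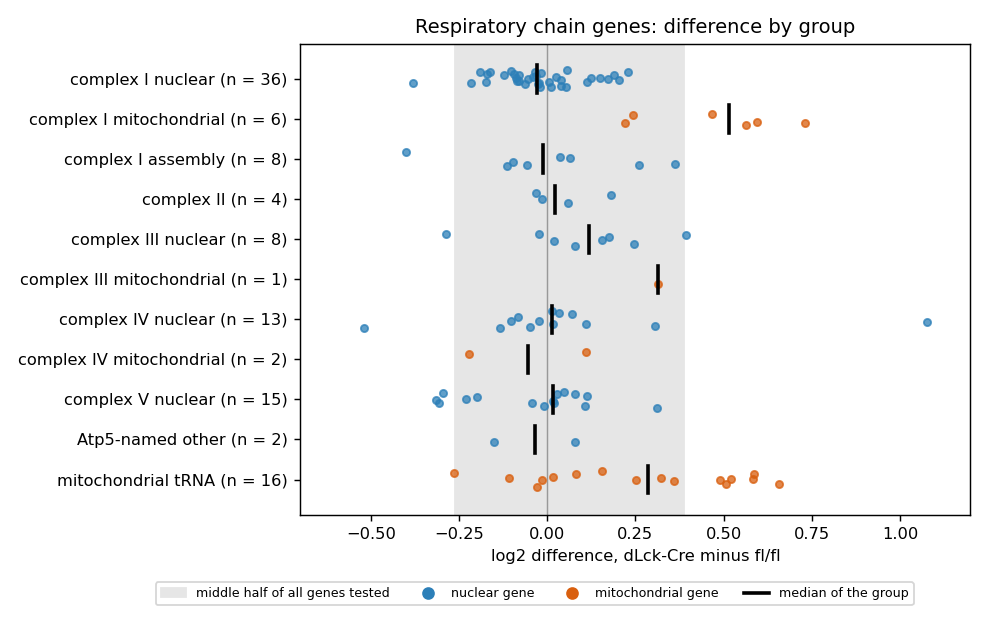
Log2 difference (dLck-Cre minus fl/fl, x axis) of each of the 111 members, by complex and by the genome that encodes it (y axis), with group medians as bars and the middle 50% of all genes tested as a grey band. Nuclear groups have medians between -0.04 and 0.12, and the 6 complex I genes of the mitochondrial genome have a median of 0.52.

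The nuclear members lay close together. Their median log2 difference was -0.01, against -0.02 over all genes tested, and their middle 50% spanned 0.17, against 0.65 over all genes. In the other pathway lists used below this span ran from 0.11 (TCA cycle genes) to 0.88 (regulators of nuclear genes). The nuclear median was 0.0060 after TMM, 0.02 after quantile normalization and 0.10 after scaling to the total of all genes outside the mitochondrial genome, so its sign depended on the scaling. By complex, medians were -0.03 for 36 complex I subunits, 0.02 for 4 complex II genes, 0.12 for 8 complex III genes, 0.01 for 13 complex IV genes and 0.02 for 15 complex V genes. The 8 complex I assembly factors had a median of -0.01. Libraries of the groups did not overlap for 23 nuclear members, 13 higher and 10 lower in libraries labelled dLck-Cre. That is 26.7% of them, where 55.2% of all genes did not overlap (27.7% higher, 27.4% lower).

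Complex I has the most subunits. Ndufs7, a core subunit that holds an iron-sulfur cluster, had the highest difference among the 36 nuclear subunits, with 856 and 853 normalized counts in libraries labelled dLck-Cre, against 708 and 750 in the fl/fl libraries (log2 difference 0.23 ± 0.14 SE; limma, adjusted p = 0.371). Ndufb11, an accessory subunit of the membrane arm (chromosome X, 20615326 to 20617619, minus strand, GRCm38), had the lowest of these. It had 1365 and 1216 normalized counts in libraries labelled dLck-Cre and 1794 and 1570 in the fl/fl libraries. The groups did not overlap, at a log2 difference of -0.38 ± 0.14 (95% interval -0.72 to -0.04; adjusted p = 0.163). Over the 36 subunits 14 differences lay above 0 and 22 below. The assembly factors, which build the complex without staying in it, were expressed at lower levels per length, with medians of 82.9 normalized counts per kb of exon in libraries labelled dLck-Cre and 85.6 in the fl/fl libraries, against 625 and 637 for the subunits. Ndufaf4 had the highest difference among them (0.36 ± 0.21, adjusted p = 0.349) and Ndufaf6 the lowest (-0.40 ± 0.26, adjusted p = 0.407).

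Complex II, succinate dehydrogenase, also serves the TCA cycle and is the complex without a mitochondrially encoded subunit. Sdha, the flavoprotein, had 4034 and 3656 normalized counts in libraries labelled dLck-Cre, against 4063 and 3703 in the fl/fl libraries, a log2 difference of -0.01 ± 0.13 (95% interval -0.32 to 0.29; adjusted p = 0.964). Sdhb, the iron-sulfur subunit, had 2351 and 2037, against 2387 and 2096 (-0.03 ± 0.14, adjusted p = 0.924). In both genes each group had 1 higher and 1 lower library and the groups overlapped. The membrane anchors Sdhc and Sdhd differed by 0.06 ± 0.17 (adjusted p = 0.878) and 0.18 ± 0.16 (adjusted p = 0.541). After scaling to T cell identity genes Sdha, Sdhb, Sdhc and Sdhd were called higher (0.51, 0.50, 0.59 and 0.71), where 30.3% of all genes rose.

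The promoters of Sdha and Sdhd are shown because they carry letters of the motif bound by NRF1, a regulator of nuclear respiratory genes. Their complex differed little between the groups in the counts as deposited. Each sequence runs from 250 bases before to 50 bases after the RefSeq start of the gene (GRCm38.p6), on the gene's strand, and capitals mark matches to the NRF1 motif (with its central base left free), CCGGAAG (the ETS family, which includes GABPA) and AAGATGGC (YY1) on either strand. The windows are chr13:74350191-74350490 (minus strand) for Sdha, with 3 NRF1 matches, and chr9:50603800-50604099 (minus strand) for Sdhd, with 1 NRF1 and 1 ETS match.
Sdha: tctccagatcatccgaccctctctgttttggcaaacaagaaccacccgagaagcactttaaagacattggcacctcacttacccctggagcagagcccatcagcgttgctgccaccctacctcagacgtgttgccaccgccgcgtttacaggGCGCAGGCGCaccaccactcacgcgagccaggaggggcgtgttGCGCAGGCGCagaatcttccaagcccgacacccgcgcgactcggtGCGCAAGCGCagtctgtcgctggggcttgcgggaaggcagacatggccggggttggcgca
Sdhd: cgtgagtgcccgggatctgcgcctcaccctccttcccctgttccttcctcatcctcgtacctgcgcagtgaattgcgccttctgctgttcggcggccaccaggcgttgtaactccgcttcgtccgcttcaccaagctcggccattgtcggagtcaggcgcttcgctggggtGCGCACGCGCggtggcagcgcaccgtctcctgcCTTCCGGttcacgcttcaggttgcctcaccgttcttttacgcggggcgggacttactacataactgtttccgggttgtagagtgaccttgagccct

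A promoter window was matched by symbol for 71 of the 86 nuclear members. The NRF1 motif was in 19 of the 71 (26.8%), against 10.6% of 10896 tested genes with a window and 5.19% of all 27025 genes in the table. Its exact form, with no free base and already included in that count, was in 7 (9.86%, against 2.17% of tested and 1.07% of all genes). CCGGAAG was in 18 (25.4%, against 18.7% and 9.93%) and AAGATGGC in 10 (14.1%, against 4.90% and 3.19%). GGGCGG, bound by the SP family, was in 31 (43.7%, against 65.2% and 38.2%). By complex, the NRF1 motif was found in 7 of 32 complex I, 2 of 3 complex II, 1 of 5 complex III, 1 of 11 complex IV and 6 of 13 complex V windows. Members with the NRF1 motif had a median log2 difference of -0.02 and members without it -0.02. A match of letters describes the window and is not evidence of binding.

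Complex III had the highest median of the nuclear groups, with 6 of 8 differences above 0. Uqcr11, a small accessory subunit (chromosome 10, 80402997 to 80406830, minus strand), had 1525 and 1467 normalized counts in libraries labelled dLck-Cre, against 1233 and 1051 in the fl/fl libraries. The groups did not overlap, at a log2 difference of 0.39 ± 0.14 (95% interval 0.06 to 0.73; limma, adjusted p = 0.15). Uqcrh, the hinge subunit near cytochrome c1 and the most abundant nuclear member of the complex by count, lay the other way, with 3499 and 3153 against 4133 and 3974 (-0.29 ± 0.13, adjusted p = 0.229). Differences in the complex thus lay on both sides of 0. Cyc1, the cytochrome c1 subunit whose symbol falls outside the membership rule, had 1284 and 1214 normalized counts, against 975 and 1005 (0.33 ± 0.13, adjusted p = 0.184). Cycs, the mobile carrier cytochrome c, had 2396 and 2402, against 2116 and 1878 (0.27 ± 0.13, adjusted p = 0.27).

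Complex IV held both the highest and the lowest difference among the nuclear members, each in a Cox7a gene. Cox7a2l encodes a Cox7a-related protein that joins complexes III and IV into supercomplexes (chromosome 17, 83501918 to 83517330, minus strand). It had 4386 and 3436 normalized counts in libraries labelled dLck-Cre, against 5754 and 5379 in the fl/fl libraries. All libraries labelled dLck-Cre lay below all fl/fl libraries, at a log2 difference of -0.52 ± 0.15 (95% interval -0.88 to -0.16). The difference did not pass across all genes (limma, adjusted p = 0.0919; edgeR, 0.126; DESeq2, 0.0568), and passed without dLck-Cre replicate 1 (-0.69, adjusted p = 0.0327). After scaling to T cell identity genes the Cox7a2l difference was 0.0099.

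Cox7a1, the form known from heart and skeletal muscle (chromosome 7, 30184144 to 30186078, plus strand), was expressed at a much lower level. It had 60.6 and 62.2 normalized counts in libraries labelled dLck-Cre, from 58 and 76 reads, against 32.2 and 25.4 in the fl/fl libraries, from 31 and 23 reads (log2 difference 1.08 ± 0.33; 95% interval 0.30 to 1.85; adjusted p = 0.101). Per length, Cox7a1 averaged 115 normalized counts per kb in libraries labelled dLck-Cre and 53.9 in the fl/fl libraries, and Cox7a2l 2646 and 3766. Cox7a2, the common form of the subunit, was level, with 2006 and 1989 against 2156 and 1912 normalized counts (-0.02 ± 0.13, adjusted p = 0.939). Among the 14 stromal and endothelial markers, which include smooth muscle genes, 0 passed limma and 5 were below an unadjusted p of 0.05. By edgeR 0 passed and by DESeq2 1, and their median was 0.90. Of all genes 6.97% passed limma, 23.9% were below an unadjusted p of 0.05, and 6.87% passed edgeR and 10.7% DESeq2. The part of these markers in the Cox7a1 values was not tested.

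The promoter windows of Cox7a2l (chr17:83514284-83514583, minus strand) and Cox7a1 (chr7:30183921-30184220, plus strand) are given for comparison with those of Sdha and Sdhd, since these genes had the lowest and the highest difference among the nuclear members. Neither window holds a match to the NRF1, ETS or YY1 letters, so that no base is in capitals, as was the case for 31 of the 71 members with a window.
Cox7a2l: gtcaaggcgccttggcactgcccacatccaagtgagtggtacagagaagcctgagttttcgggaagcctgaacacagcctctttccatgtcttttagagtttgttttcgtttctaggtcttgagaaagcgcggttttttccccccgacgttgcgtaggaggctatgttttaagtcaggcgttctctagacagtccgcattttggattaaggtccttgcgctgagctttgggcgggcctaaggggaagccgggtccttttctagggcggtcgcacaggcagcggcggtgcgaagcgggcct
Cox7a1: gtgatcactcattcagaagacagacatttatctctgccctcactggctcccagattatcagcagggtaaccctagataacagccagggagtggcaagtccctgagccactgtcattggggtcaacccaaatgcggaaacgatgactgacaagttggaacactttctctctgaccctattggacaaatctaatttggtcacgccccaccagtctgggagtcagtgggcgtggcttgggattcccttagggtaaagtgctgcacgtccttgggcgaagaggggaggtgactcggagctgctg

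The other complex IV genes with tissue forms were represented by their common forms. Cox4i1, the regulatory subunit and the most abundant nuclear member of complex IV, had 7804 and 6945 normalized counts in libraries labelled dLck-Cre and 8166 and 7640 in the fl/fl libraries (log2 difference -0.10 ± 0.13; limma, adjusted p = 0.699). Cox6a1 had 2400 and 2810, against 2134 and 2067, without overlap (0.31 ± 0.14, adjusted p = 0.229). Cox6b1, Cox7b and Cox8a differed by 0.03, 0.11 and 0.01, and Ndufa4, named for complex I but since assigned to complex IV, by -0.08 (adjusted p between 0.658 and 0.962).

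In complex V, whose catalytic head is built from the products of Atp5a1 and Atp5b, 8 differences lay above 0 and 7 below. Atp5b had the highest count of all nuclear members, with 24056 and 22817 normalized counts in libraries labelled dLck-Cre, against 21828 and 21642 in the fl/fl libraries (log2 difference 0.11 ± 0.14; limma, adjusted p = 0.684). The groups did not overlap, but lay close beside their spread. The genes Atp5g1, Atp5g2 and Atp5g3 encode the same ring subunit c with different import signals. Atp5g1 had 1713 and 1659 normalized counts, against 1449 and 1272 (0.31 ± 0.14, adjusted p = 0.22), the highest difference of the complex. Atp5g2 had 1900 and 1518, against 2065 and 2134 (-0.31 ± 0.15, adjusted p = 0.271), and Atp5g3 differed by 0.03. These genes thus lay on both sides of 0, none past the test. Atp5h, a stalk subunit, had the lowest difference, with 3940 and 3291 against 4713 and 4267 (-0.32 ± 0.14, adjusted p = 0.234). Atp5s and Atp5sl, which carry the name but were grouped apart from the subunits, differed by 0.08 and -0.15. Many of these genes have processed pseudogenes, and since the counting is not stated in the sources used here, their reads may be shared with such copies.

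**Figure D2:**
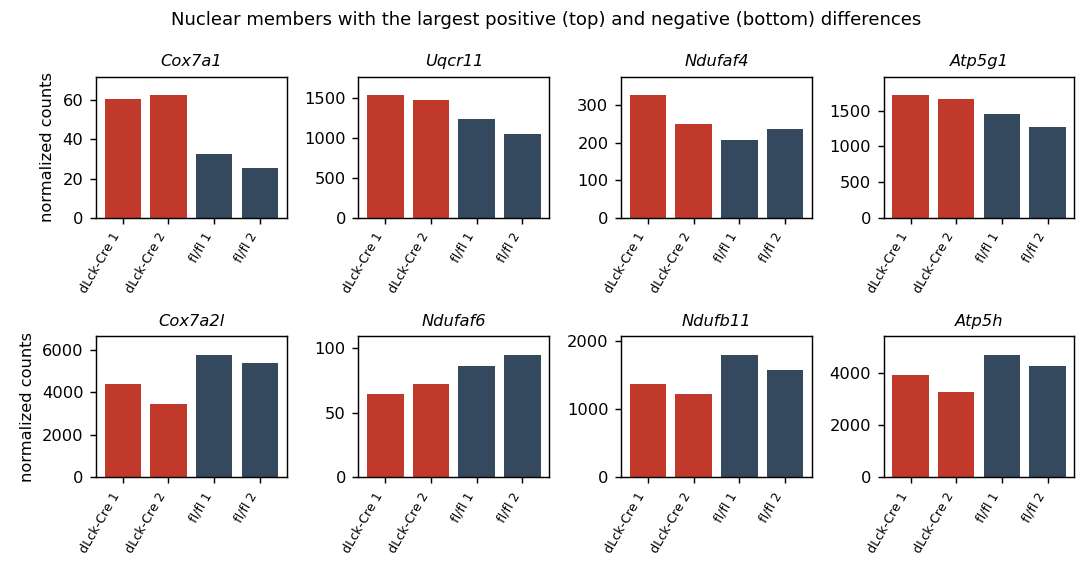
Normalized counts (y axis) of the 4 nuclear members with the highest and the 4 with the lowest log2 difference, 1 bar per library, with the libraries labelled dLck-Cre in red and fl/fl in dark grey. The groups do not overlap in these 8 genes, which were picked by their differences. Among nuclear members 26.7% did not overlap, against 55.2% of all genes. None of the 8 passed the test across all genes. Cox7a1 stands at 25.4 to 62.2 and Cox7a2l at 3436 to 5754.

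The mitochondrial genome's own transcripts had higher medians than the nuclear members but a far wider spread. They took 0.295% of reads (exact 95% interval 0.292 to 0.297) and 0.461% (0.459 to 0.464) in libraries labelled dLck-Cre, against 0.289% (0.286 to 0.291) and 0.325% (0.322 to 0.327) in the fl/fl libraries. The groups overlapped, and these intervals cover counting error only. The mitochondrial shares cover the 25 listed genes and are not those of all transcripts of the mitochondrial genome. Nuclear members took 1.06% (1.06 to 1.07) and 0.926% (0.922 to 0.930), against 0.980% (0.975 to 0.984) and 0.880% (0.875 to 0.884). The 9 mitochondrial protein genes had a median log2 difference of 0.31 and the 16 tRNA genes of 0.29, and 20 of the 25 differences lay above 0. With 2 libraries a group, an exact two-sided permutation test of a single value cannot give a p below 0.333, so no test of the shares is given.

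mt-Co1, the catalytic subunit of complex IV (mitochondrial genome, 5328 to 6872, GRCm38), held most of these reads. It had 40375 and 66157 normalized counts in libraries labelled dLck-Cre, against 46731 and 49119 in the fl/fl libraries. Per library this was between 77.6% and 84.1% of the reads of the 25 listed mitochondrial genes. The highest and the lowest library were both labelled dLck-Cre, and the log2 difference was 0.11 ± 0.24 (limma, adjusted p = 0.826). Per length, mt-Co1 averaged 34476 normalized counts per kb in libraries labelled dLck-Cre and 31019 in the fl/fl libraries, while the highest nuclear members per length were Atp5b, at 5531 and 5130, and Cox8a, at 5466 and 5415. mt-Co3, of the same complex, was listed at only 20.9 and 27.8 normalized counts, against 24.9 and 32.0 (-0.22 ± 0.40, adjusted p = 0.788).

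mt-Co3 has a nuclear copy. A stretch of mt-Co3 (mitochondrial genome, 8677 to 8736, plus strand) and of the annotated pseudogene Gm28437 (chr1:24613842-24613901, minus strand), both from GENCODE vM21 transcripts, is shown because the sequences cannot be told apart by a read that lies within them.
mt-Co3: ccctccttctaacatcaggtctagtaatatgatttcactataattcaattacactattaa
Gm28437: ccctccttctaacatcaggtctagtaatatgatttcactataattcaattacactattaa
Over the 783 bases compared, the genes had 0 mismatches, so no base is in capitals. Of the 735 windows of 50 bases in mt-Co3, 99.9% occur in an annotated nuclear transcript, as do 98.0% of those of mt-Nd3, 62.2% of those of mt-Nd4 and 51.1% of those of mt-Co1. The share was 8.19% for mt-Nd2, 7.61% for mt-Nd5 and 0.0% for mt-Nd1, mt-Nd6, mt-Cytb and the 16 tRNA genes. mt-Co3 and mt-Nd3, with the highest shares, had the lowest levels per length of the 9 protein genes. Gm28437 itself had 6.27 and 20.5 normalized counts in libraries labelled dLck-Cre and 7.28 and 12.2 in the fl/fl libraries. How multiply mapped reads were counted is not given in the sources used here, and the part of these copies in the counts was not tested. The values of mt-Co3, mt-Nd3, mt-Nd4 and mt-Co1 are therefore uncertain as levels. Only annotated transcripts were searched and not the whole genome, so a share of 0.0% does not show that a gene has no nuclear copy. Of 37 genes annotated on the mitochondrial genome, the other 12 had no row in the deposited table and so were not analysed. They include both rRNAs, mt-Co2, mt-Atp6, mt-Atp8 and mt-Nd4l, so complex V had no mitochondrial gene to compare.

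The complex I subunits of the mitochondrial genome had a median log2 difference of 0.52, against -0.03 for the nuclear subunits of the same complex. mt-Nd5, a proton-pumping subunit, had 3283 and 4565 normalized counts in libraries labelled dLck-Cre, against 1773 and 3868 in the fl/fl libraries (0.56 ± 0.34; 95% interval -0.23 to 1.36; limma, adjusted p = 0.36). mt-Nd6, the protein gene on the opposite strand, whose end overlaps that of mt-Nd5, had 1205 and 1494, against 587 and 1342 (0.60 ± 0.35, adjusted p = 0.344). In both genes fl/fl replicate 1 was the lowest library and the groups overlapped. Without fl/fl replicate 2 the differences were 1.13 for mt-Nd5 (adjusted p = 0.015) and 1.19 for mt-Nd6 (adjusted p = 0.0122), and without fl/fl replicate 1 they were 0.0015 and -0.00039. The values of these genes thus rested on which fl/fl library was kept. Reads of mt-Nd5 and mt-Nd6 in their overlap cannot be separated, since no source says whether strand was used in counting.

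mt-Nd1 had 1987 and 3672 normalized counts in libraries labelled dLck-Cre, against 2134 and 2442 in the fl/fl libraries (log2 difference 0.24 ± 0.27; limma, adjusted p = 0.632). Its extremes were both libraries labelled dLck-Cre. The difference was 0.69 without dLck-Cre replicate 1 (adjusted p = 0.0454) and -0.20 without dLck-Cre replicate 2. mt-Nd2 had 825 and 1535 normalized counts, against 717 and 1299 (0.22 ± 0.35, adjusted p = 0.753), and mt-Nd4 had 601 and 1307, against 503 and 817 (0.47 ± 0.37, adjusted p = 0.494). mt-Nd3 had 81.5 and 119, against 36.4 and 95 (0.73 ± 0.46, adjusted p = 0.383). In these genes too the groups overlapped. For complex III, mt-Cytb, the cytochrome b gene, had 2330 and 4102 normalized counts, against 2040 and 3031 (0.31 ± 0.29, adjusted p = 0.556), beside a nuclear median of 0.12.

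**Figure D3:**
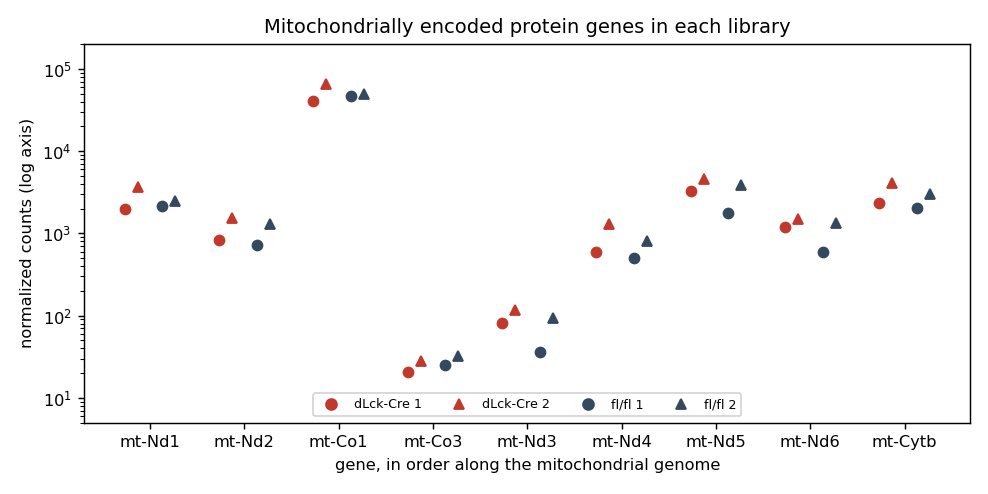
Normalized counts on a log axis (y) of the 9 mitochondrially encoded protein genes in order along the genome (x), with circles for replicate 1 and triangles for replicate 2, red for the libraries labelled dLck-Cre and dark grey for fl/fl. In each gene the groups overlap, and replicate 2 lies above replicate 1 in both groups.

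The 16 tRNA genes, which are short and were at 6.27 to 399 normalized counts in libraries labelled dLck-Cre and 5.20 to 262 in the fl/fl libraries, had differences between -0.26 (mt-Th) and 0.66 (mt-Tl2). Their median standard error was 0.52, against 0.15 for the nuclear members. Reads of uncut precursors that run across a tRNA could be counted here, which was not tested. By strand, the 17 analysed genes of the plus strand had a median log2 difference of 0.32 and the 8 of the minus strand 0.20. The difference between strands was not tested. No source says whether strand was used in counting, so counts of a gene may include reads of the opposite strand.

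Nuclear and mitochondrial members moved apart between replicates. In both groups replicate 2 had lower nuclear and higher mitochondrial levels than replicate 1. The median log2 difference of replicate 2 from replicate 1 over the nuclear members was -0.15 in libraries labelled dLck-Cre and -0.17 in the fl/fl libraries, and over the 9 mitochondrial protein genes 0.71 and 0.70. Over all genes tested it was 0.0086 and 0.0063. Of the 86 nuclear members 71 (82.6%) were lower in replicate 2 in both groups, as were 28.4% of all genes. They included 33 of 36 complex I subunits and all 4 complex II genes. Of the 25 mitochondrial members 21 (84.0%) were higher in replicate 2 in both groups, as were 30.0% of all genes, and 0 were lower in both. This pattern was noticed in these data, and members of a pathway are not independent, so the counts are a description.

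**Figure D4:**
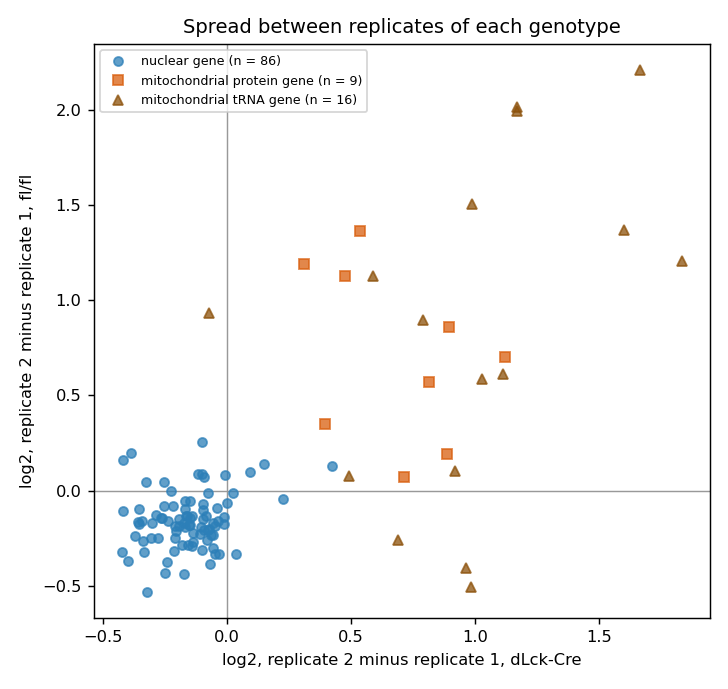
Log2 difference of replicate 2 from replicate 1 in libraries labelled dLck-Cre (x axis) and in the fl/fl libraries (y axis) for each member. Nuclear genes gather below 0 on both axes, at medians of -0.15 and -0.17, and the 9 mitochondrial protein genes all lie above 0 on both.

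The mean log2 level of the 9 mitochondrial protein genes minus that of the nuclear members was -0.41 and 0.43 in libraries labelled dLck-Cre and -0.76 and 0.11 in the fl/fl libraries. The groups overlapped in this value, and within each replicate number it was higher in the library labelled dLck-Cre. Several other values of the libraries stand beside this pattern. Replicate 2 was the deeper library among those labelled dLck-Cre and the shallower among the fl/fl libraries. Monocyte, macrophage and dendritic cell markers took 0.648% and 0.533% of reads in dLck-Cre replicates 1 and 2 and 0.321% and 0.194% in fl/fl replicates 1 and 2, and epithelial markers 0.750% and 0.865%, and 0.302% and 0.336%. In the same order, T cell identity genes took 0.617% and 0.563%, and 0.808% and 0.786%. Stromal and endothelial markers took 0.0186% and 0.0232%, and 0.0218% and 0.0100%. The labels do not say what the replicate number stands for, and the part of these values in the pattern was not tested.

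Other genes of respiration and mitochondrial gene expression were taken from fixed lists. Among all genes tested, 6.97% were called by limma, 6.87% by edgeR and 10.7% by DESeq2. An unadjusted p under 0.05 by limma was found for 23.9% of all genes. Of 42 further assembly factors and cytochrome c genes, 0 passed limma (2 below an unadjusted p of 0.05, and 0 by both edgeR and DESeq2), at a median of -0.06. Of 16 TCA cycle genes 0 passed (2 below an unadjusted p of 0.05, and 0 by both edgeR and DESeq2), at a median of 0.06. Of these 16 differences 13 lay above 0 and 3 below. The groups did not overlap for 9 TCA cycle genes higher and 0 lower in libraries labelled dLck-Cre. That is 56.25% of them, where 55.2% of all genes did not overlap (27.7% higher, 27.4% lower). Of 6 carriers and porins 0 passed (0 below an unadjusted p of 0.05, and 0 by both edgeR and DESeq2). Of 28 genes of mitochondrial DNA maintenance and RNA synthesis and processing 1 fell, where 1.22% of all genes fell, and 2 were below an unadjusted p of 0.05, at a median of 0.03. It was Polg2, the accessory subunit of the mitochondrial DNA polymerase, with 1044 and 957 normalized counts in libraries labelled dLck-Cre, against 1555 and 1720 in the fl/fl libraries (log2 difference -0.71 ± 0.14; limma, adjusted p = 0.0329). The Polg2 call was lost without dLck-Cre replicate 2 (-0.65, adjusted p = 0.104), without fl/fl replicate 2 (-0.64, adjusted p = 0.11) and after scaling to T cell identity genes (-0.18, adjusted p = 0.314). It was also lost after quantile normalization (adjusted p = 0.0603) and by limma with no trend (0.135), and held by edgeR (0.0318) and DESeq2 (0.00299). Tfam, which packages mitochondrial DNA and starts its transcription, had 729 and 548, against 897 and 801 (-0.42 ± 0.18, adjusted p = 0.21), and Polrmt, the mitochondrial RNA polymerase, differed by 0.07.

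Of 12 regulators of nuclear respiratory genes 1 rose, where 5.75% of all genes rose. Below an unadjusted p of 0.05 were 7 of the 12, against 23.9% of all genes, and their median log2 difference was 0.36. The groups did not overlap for 10 of the 12, 5 higher and 5 lower in libraries labelled dLck-Cre. That is 83.3% of them, where 55.2% of all genes did not overlap (27.7% higher, 27.4% lower). Esrra, which encodes the estrogen-related receptor alpha, an activator of respiratory genes, had 1595 and 1631 normalized counts in libraries labelled dLck-Cre, against 944 and 1065 in the fl/fl libraries (log2 difference 0.69 ± 0.14; limma, adjusted p = 0.0337). The Esrra call was lost without dLck-Cre replicate 1 (adjusted p = 0.0522), without dLck-Cre replicate 2 (0.105) and without fl/fl replicate 1 (0.123), at differences between 0.60 and 0.70. It was also lost after quantile normalization (adjusted p = 0.053) and by limma with no trend (0.139), and Esrra passed by edgeR (0.0296) and DESeq2 (0.00426). Nrf1 had 1129 and 1073, against 1433 and 1468 (-0.40 ± 0.13, adjusted p = 0.122), and was positive after scaling to T cell identity genes. Ppargc1a, the PGC-1α coactivator, had 39.7 and 75.3 normalized counts, against 26 and 19.9 (1.23 ± 0.42, adjusted p = 0.131). The epithelial and myeloid markers described above were higher in the same libraries, and their part in the Esrra and Ppargc1a values was not tested.

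Scaling the libraries to T cell identity genes was the one scaling tried of 5 under which respiratory chain genes were called. After scaling to the 20 T cell identity genes 50 members rose, all of them nuclear, and 0 fell. By that scaling 30.3% of all genes rose. The median of all genes tested was then 0.50, against -0.02 as deposited, and the nuclear members had a median of 0.52, so they lay 0.015 above all genes after this scaling and 0.011 above them as deposited. The mitochondrial protein genes lay 0.34 above all genes under both. This scaling shifts all genes by nearly the same amount, so these offsets could not have changed much. The T cell identity genes used for it had a median of -0.51 as deposited.

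**Figure D5:**
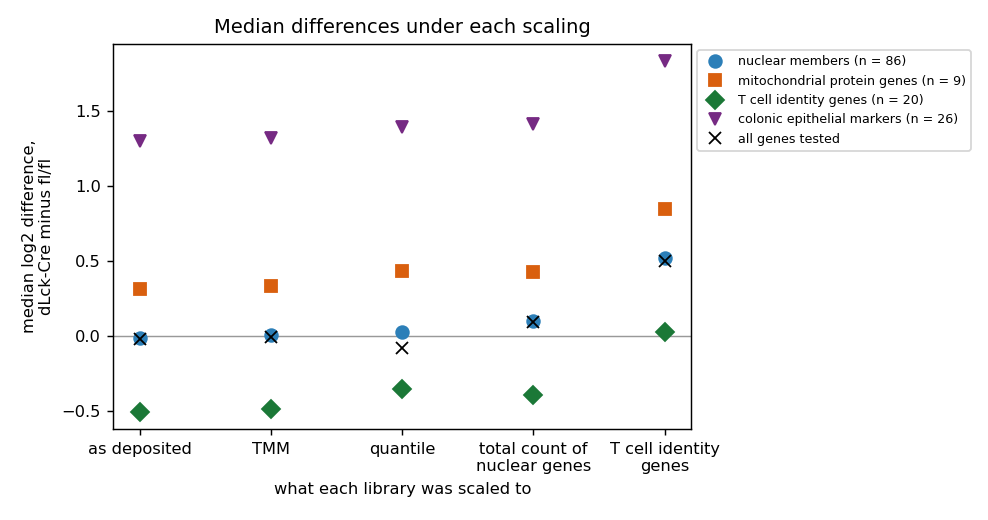
Median log2 difference (dLck-Cre minus fl/fl, y axis) of the nuclear members, the mitochondrial protein genes, T cell identity genes, colonic epithelial markers and all genes tested under 5 scalings of the libraries (x axis). The nuclear members lie beside all genes under each scaling, at -0.01 as deposited and 0.52 after scaling to T cell identity genes.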

How the data were processed

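RNA sequencing libraries of sorted colonic CD4+ T cells, 2 per group and 4 in all, were read from the deposited table. Genome build mm10 is given per the submitters' processing notes; no source used here names the aligner, the counting tool, the strand setting or the annotation. As the values show, the authors deposited normalized counts, a signal in which each library's gene counts share 1 scale factor: in every library 100.0% of values were whole multiples of 1 step (tolerance 1e-06), which returned whole reads. Every listed gene had at least 41 reads in all.

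Testing used limma 3.58.1 (intensity trend) on log2(normalized count + 1) in R 4.3.3, over the 16490 genes with a mean of at least 10, with Benjamini-Hochberg adjustment over all of them and a threshold of 0.05. Log2 differences therefore run below the true change where counts are low. Alternatives were pseudocounts of 0.5 and 5, no filter or a mean of at least 50, TMM, quantile, nuclear-total and T cell identity scaling, limma with robust estimation or with no trend, edgeR 4.0.16 and DESeq2 1.42.0 on the recovered reads, the replicate block and leaving out each library. Missing DESeq2 adjusted p-values stayed missing. On counts simulated for this comparison (16490 genes) 54% of genes altered 2-fold and 95% of those altered 4-fold were called by limma, with 6.29% false calls. The altered genes all had a mean of at least 50, so these recovery rates do not cover genes at lower counts, such as Cox7a1.

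Named genes were the mitochondrial protein genes, in each nuclear group the highest and lowest difference and the highest count, tissue forms, complex II, and other pathway genes past the threshold with 6 fixed ones; a gene this rule names is not reported here. The members and lists were chosen with earlier results of these data known. Cox7a1, Cox7a2l, Ndufb11 and Uqcr11 are also the members below an unadjusted p of 0.05. Coordinates and exon lengths (all annotated exons merged) came from GENCODE vM21, which uses the mm10 assembly, and 109 of 111 symbols matched 1 gene. Promoters came from RefSeq (GRCm38.p6). Shares have exact (Clopper-Pearson) 95% intervals from scipy 1.17.1, and figures were drawn with matplotlib 3.10.9.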

Additional observations from a re-analysis of the deposited data

How the results depend on the processing

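The count of 0 members past the threshold held in the alternatives other than these. After scaling to T cell identity genes 50 members were higher, and with the replicate block 1, Cox7a2l, was lower (-0.52, adjusted p = 0.0336). Leaving out 1 library gave 0 to 2 members higher (mt-Nd5 and mt-Nd6 without fl/fl replicate 2, mt-Nd1 without dLck-Cre replicate 1) and 0 to 1 lower (Cox7a2l without dLck-Cre replicate 1). The replicate numbers are not known to pair the samples: deviations of same-numbered libraries had a Pearson r of 0.11 across 16490 genes, and the block raised the calls over all genes to 12.7%.

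Scaling to T cell identity genes moved the median log2 difference to 0.55 for all members, 0.52 for nuclear members, 0.84 for mitochondrial protein genes, 0.50 for complex I, 0.52 for complex I assembly, 0.55 for complex II, 0.65 for complex III, 0.54 for complex IV and 0.55 for complex V. The nuclear-total scaling moved it to 0.13 for all members, 0.23 for complex III, 0.13 for complex IV and 0.13 for complex V. Quantile normalization moved it to -0.21 for complex I assembly, 0.15 for complex IV and 0.13 for complex V. Leaving out 1 library gave -0.18 to 0.16 for complex I assembly, 0.066 to 0.16 for complex III and -0.13 to 0.11 for complex V. The cause was not tested.

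Signs of uncalled differences turned in several genes. Scaling to T cell identity genes raised the median of all genes to 0.50, so that differences a little below 0 had to turn; it gave 0.29 for mt-Co3, 0.15 for Ndufb11, 0.12 for Ndufaf6, 0.50 for Sdhb, 0.51 for Sdha, 0.24 for Uqcrh, 0.0099 for Cox7a2l, 0.43 for Cox4i1, 0.21 for Atp5h, 0.51 for Cox7a2, 0.22 for Atp5g2, 0.45 for Ndufa4, 0.10 for Tfam and 0.13 for Nrf1. Quantile normalization gave 0.082 for Sdhb, 0.13 for Sdha, 0.062 for Cox4i1, 0.077 for Cox7a2 and -0.076 for Polrmt. The nuclear-total scaling gave 0.081 for Sdhb, 0.098 for Sdha, 0.011 for Cox4i1, 0.089 for Cox7a2 and 0.030 for Ndufa4. Sdha was 0.0028 after TMM and 0.0042 with edgeR. Leaving out 1 library gave -0.25 to 0.47 for mt-Co1, -0.094 to 0.72 for mt-Cytb, -0.20 to 0.69 for mt-Nd1, -0.23 to 0.67 for mt-Nd2, -0.093 to 1.03 for mt-Nd4 and -0.00039 to 1.19 for mt-Nd6. It gave -0.14 to 0.072 for Sdhb, -0.085 to 0.057 for Sdha, -0.068 to 0.14 for Cox6b1, -0.11 to 0.063 for Cox7a2, -0.018 to 0.046 for Cox8a, -0.12 to 0.18 for Atp5g3, -0.17 to 0.0045 for Ndufa4 and -0.13 to 0.25 for Sdhc. The mitochondrial share of reads counted over protein genes alone moved by less than the spread between replicates in each library. Depth limits low genes most: mt-Th had 7 and 35 reads in libraries labelled dLck-Cre and 11 and 25 in the fl/fl libraries.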
